A study of Homo sapiens with 18 samples.

Results

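The HOX genes are the 39 homeobox genes of the human HOXA, HOXB, HOXC and HOXD clusters, taken here as every row of the count table whose symbol is HOX followed by a cluster letter and a paralog number, 39 of 28277 genes. They encode transcription factors that give cells their position along the body axis, and within a cluster the low-numbered (3′) genes are switched on earlier and further forward than the high-numbered (5′) genes. HOX proteins bind DNA together with PBX and MEIS partners, their silent state is held by Polycomb complexes and their active state by Trithorax complexes, and the 3′ genes respond to retinoic acid. In the female reproductive tract HOXA9, HOXA10, HOXA11 and HOXA13 mark successive segments from the oviduct down to the vagina.

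The libraries came from OVCAR3, an ovarian cancer cell line labelled as high-grade serous, that carried dCas9-KRAB, a nuclease-dead Cas9 fused to a repressor domain. All 6 groups shared that repressor and differed in guide and oxygen: sgCtl (a control guide against Gal4), sgXIST7 or sgXIST9 (guides against the promoter of XIST, the long noncoding RNA that silences an X chromosome), each in normoxia or in hypoxia at 1% oxygen for 24 h. Each group had 3 libraries of ribosomal-RNA-depleted total RNA. The study drew clones for sgCtl as for the knockdown (KD) lines and sequenced clonal cells. The labels name no clone, so guide and clone cannot be told apart in sgCtl or in the KD lines. The study calls its replicates biological without saying whether they were separate cultures of a line, so the p-values measure the spread between these libraries. XIST had 1589 to 11209 counts per library in sgCtl, 0 to 5 in sgXIST7 and 357 to 1009 in sgXIST9.

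Library totals ran from 11794375 to 24906936 counts, and the 39 HOX genes together took 0.0128 to 0.0317% of them. At this depth 3 counts, taken here as the detection floor, were worth 0.13 to 0.266 CPM (counts scaled by library size, with edgeR's TMM factors), which covers counting error only. The label was checked against 15 markers of serous carcinoma epithelium: EPCAM had group means of 160 to 243 CPM and KRT18 of 140 to 219 CPM, PAX8 was low at 1.51 to 4.55 CPM, and 5 markers (WFDC2, CDH1, KRT7, SOX17 and CLDN3) never passed 3 counts. WT1, MUC16, KRT19, EMX2 and CLDN4 also had too few counts to be tested. With 5 of the 15 tested, only a part of the list bears out the label. Among these 5, KRT8 was called higher in all 4 KD comparisons and lower with hypoxia in sgCtl. MSLN was called higher in sgXIST7 than in sgCtl in normoxia, and PAX8 higher with hypoxia in sgXIST7. The 9 fibroblast markers summed to 747 to 1030 CPM in sgCtl, 886 to 1300 in sgXIST7 and 443 to 716 in sgXIST9. Of the 5 tested, COL1A1 and COL1A2 were called higher in all 4 KD comparisons (COL1A2 at group means of 0.213 to 0.275 CPM in sgCtl and 45.5 to 189 CPM in the KD groups), and DCN was called lower in both KD lines in hypoxia, at log2 changes of -5.12 and -4.04. Of 8 leukocyte markers PTPRC and CD3E never passed 3 counts, but CD68 and FCER1G were tested, and the list summed to 13.6 to 56.4 CPM. CD68 was called lower with hypoxia in sgXIST9. Of 6 endothelial and 5 pluripotency markers 0 were tested, and CDH5 and POU5F1 never passed 3 counts. The part of these markers in the HOX results was not tested, and in bulk RNA fewer cells of a type and less RNA per cell cannot be told apart. In hypoxia replicate 3 lay furthest from the other libraries of its group: over the tested HOX genes its median absolute log2 distance from the mean of the others was 0.56 in sgCtl, 0.42 in sgXIST9 and 0.32 in sgXIST7, the last close to the 0.29 of replicate 1. Distances as large were found for sgCtl hypoxia replicate 2 (0.43) and sgXIST7 normoxia replicate 2 (0.41). Calls were also made without the 3 hypoxia replicate 3 libraries, and libraries left out 1 at a time are given beside the calls they end.

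Of the 39 HOX genes, 26 had enough counts to be tested and 13 did not, of which 7 lie in HOXA, 1 (HOXB1) in HOXB, 2 (HOXC11 and HOXC12) in HOXC and 3 (HOXD3, HOXD4 and HOXD12) in HOXD. Of those 13, 11 never passed 3 counts in any library, HOXA3 reached 7 and HOXA7 reached 11. HOXA9 and HOXC11 had 0 counts in all 18 libraries, which allows up to 0.13 to 0.266 CPM per library. In the count table, however, 72.4% of the HOXA9 exon bases are shared on the same strand with HOXA10-HOXA9. Reads in that stretch cannot be given to 1 of them, so the bound for HOXA9 covers its other exon bases only. Within that limit the reproductive tract genes HOXA9 and HOXA10 were not detected over the floor, whereas HOXA11 and HOXA13 were counted in every library. For HOXA7, 74.7% of the exon bases lie opposite HOXA-AS3.

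**Figure D1:**
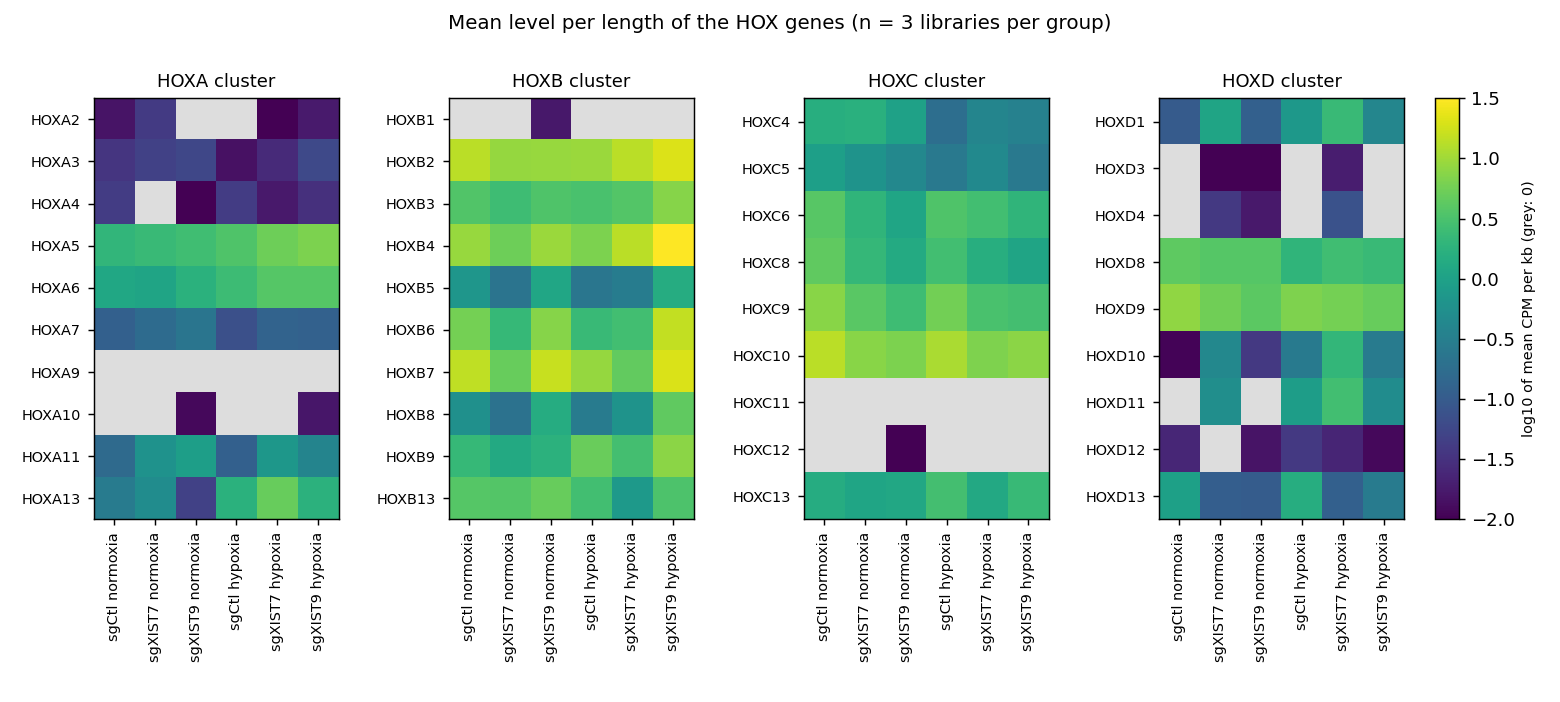
Mean level of the HOX genes described here, per group of 3 libraries, as log10 of CPM per kilobase of exon, with 1 panel per cluster and genes in paralog order; grey cells are 0. HOXB2 to HOXB9, HOXC4 to HOXC10 and HOXD8 to HOXD9 form the expressed blocks, and most of HOXA lies near or at 0.

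Levels were compared between genes only per exon length. Averaged over the 18 libraries, the highest were HOXB4 at 12.8 CPM per kb, HOXB2 at 12.6 and HOXB7 at 11.4, followed by HOXC10 at 8.85, HOXB6 at 5.92 and HOXD9 at 5.89. The highest HOXA gene was HOXA5 at 3.7 CPM per kb. In the heat map of levels the HOXB cluster (chr17:48528526-48728750, hg38, minus strand) was expressed from HOXB2 to HOXB9 and again at HOXB13, with HOXB1 silent. The HOXC cluster (chr12:53938831-54056030, plus strand) was expressed except for HOXC11 and HOXC12. In the HOXA cluster on chromosome 7 (minus strand) 4 of 11 genes passed the filter, and in the HOXD cluster (chr2:176092721-176190907, plus strand) 6 of 9 did.

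Each comparison was tested with edgeR's quasi-likelihood test over 14938 genes, and a gene was called when its Benjamini-Hochberg adjusted p was under 0.01 and its log2 fold change was over 1 in size. A call is described as lost where leaving out the named library took the gene under either threshold, and the adjusted p beside it gives the range over all alternative fits of that comparison. In normoxia sgXIST7 against sgCtl gave 9 of 26 HOX genes called, beside 7.76% of all genes tested: 4 higher, beside 4.67%, and 5 lower, beside 3.09%. For sgXIST9 it was 8, beside 7.70%, with 2 higher, beside 3.93%, and 6 lower, beside 3.77%. In hypoxia sgXIST7 against sgCtl gave 5, beside 14.0%, with 4 higher, beside 7.83%, and 1 lower, beside 6.19%. For sgXIST9 in hypoxia it was 11, beside 9.53%, with 8 higher, beside 6.14%, and 3 lower, beside 3.39%. Set against each other in normoxia, the guides gave 6 HOX genes, beside 3.40%, with 2 higher in sgXIST7, beside 2.09%, and 4 lower, beside 1.31%. In hypoxia they gave 9, beside 4.46%, with 3 higher in sgXIST7, beside 2.06%, and 6 lower, beside 2.40%.

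Hypoxia against normoxia gave 8 of 26 in sgCtl, beside 19.7%, with 5 higher, beside 11.3%, and 3 lower, beside 8.49%. In sgXIST7 it gave 10, beside 27.3%, with 8 higher, beside 15.1%, and 2 lower, beside 12.2%. In sgXIST9 it gave 11, beside 23.3%, with 10 higher, beside 14.7%, and 1 lower, beside 8.58%. Groups whose libraries did not overlap were common over the whole table. They were found for 19, 17, 15 and 18 of the 26 HOX genes in the KD comparisons (sgXIST7 then sgXIST9 in normoxia, then the same in hypoxia), beside 45.5, 53.9, 40.5 and 33.7% of all genes. Between the guides they were found for 17 HOX genes in normoxia and 15 in hypoxia, beside 40.7 and 29.7%. For hypoxia they were found for 19 in sgCtl, 14 in sgXIST7 and 21 in sgXIST9, beside 54.9, 63.9 and 65.9%, so for sgXIST7 the HOX count was not above the background.

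All genes tested were not matched by level to the HOX genes, several of which had few counts. In the 4 KD comparisons the HOX genes moved further than the typical gene, in both directions. Their median absolute log2 fold change in the 4 KD comparisons was 0.83, 0.64, 0.91 and 0.89 (sgXIST7 then sgXIST9 in normoxia, then the same in hypoxia), beside 0.28, 0.28, 0.44 and 0.34 over all genes tested, while their median signed changes were -0.59, -0.13, 0.36 and 0.27. For hypoxia the median absolute change was 0.86 in sgCtl, 0.51 in sgXIST7 and 1.13 in sgXIST9, beside 0.53, 0.63 and 0.57 over all genes, so in sgXIST7 the HOX median lay under that of all genes. The comparisons of each guide with sgCtl share the sgCtl libraries, whose clone is not named either. Only HOXA11 was up-regulated and only HOXD13 was down-regulated in all 4 KD comparisons, and HOXA6, HOXA13, HOXB9 and HOXD11 were up-regulated by hypoxia in all 3 lines. The shares of all genes called alike in all 4 or all 3 were not computed, so this is not read as particular to HOX genes. Without the 3 hypoxia replicate 3 libraries the counts against sgCtl were 10 for sgXIST7 and 9 for sgXIST9 in normoxia and again 10 and 9 in hypoxia. Those between the guides were 8 in normoxia and 13 in hypoxia. The hypoxia counts were 9 in sgCtl, 10 in sgXIST7 and 15 in sgXIST9. Over these comparisons and the interactions 26 calls were gained and 6 lost, and the gains that touch a member are given with it. The shares of all genes called without these libraries were not computed, so these counts and gains are not read as particular to HOX genes. The 6 lost were HOXB4 and HOXD1 in sgXIST7 and HOXC9, HOXB7 and HOXB2 in sgXIST9, all against sgCtl in hypoxia, and HOXB6 with hypoxia in sgCtl.

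**Figure D2:**
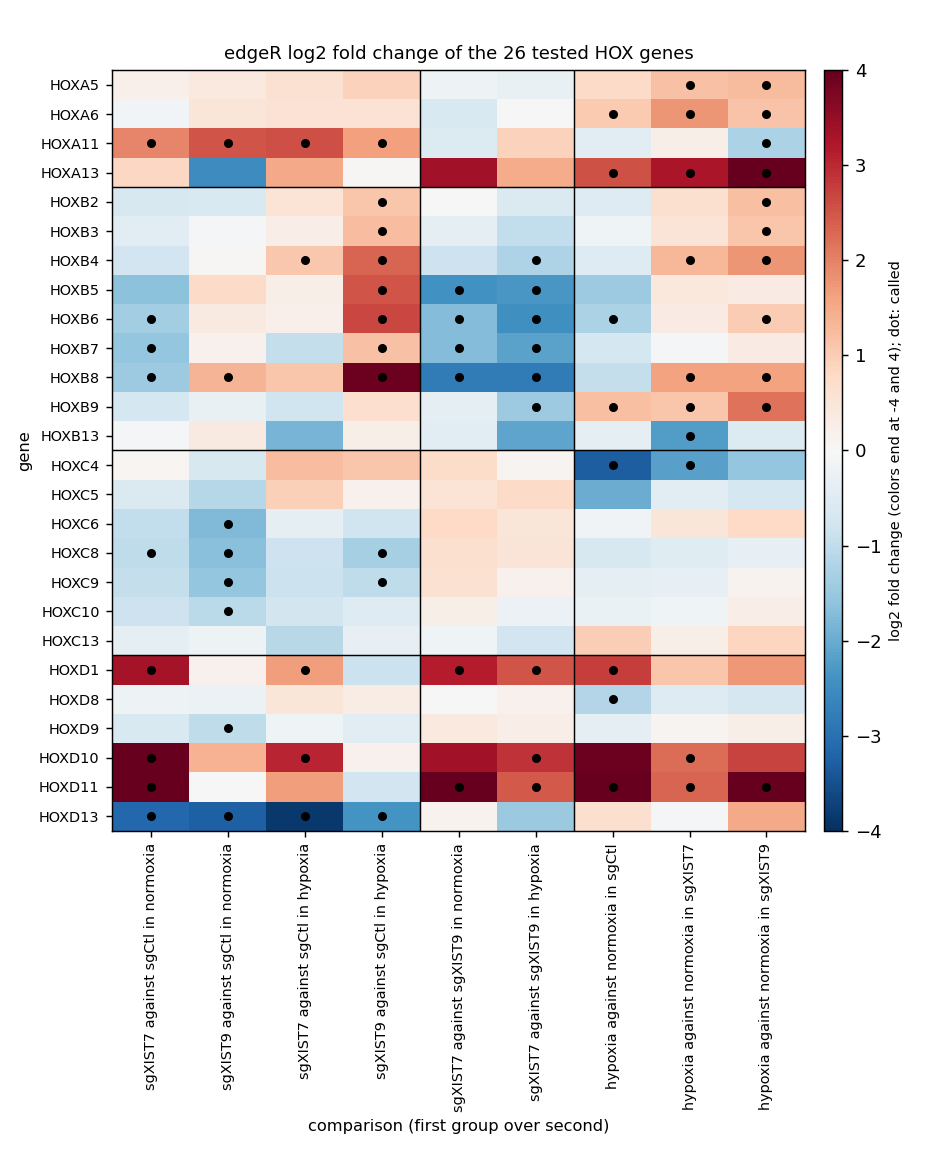
edgeR log2 fold change of the 26 tested HOX genes (rows, by cluster) in 9 comparisons (columns, first group over second, 3 libraries each); colors end at -4 and 4 and a dot marks a called gene. HOXA11 is red and HOXD13 blue in each of the 4 KD columns, HOXB4 to HOXB8 are blue where sgXIST7 is set against sgXIST9, and HOXA5 to HOXA13 other than HOXA11 are red in the hypoxia columns.

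HOXA11 and HOXD13, 5′ genes of their clusters that pattern the reproductive tract, limbs and hindgut, were the members called in the same direction under both guides and both oxygen levels. HOXA11 (chr7:27181157-27185232, minus strand) was in normoxia at 0.537, 0.464 and 0.287 CPM in sgCtl, 1.95, 1.17 and 1.83 in sgXIST7 and 2.63, 2.07 and 2.63 in sgXIST9. In hypoxia HOXA11 was at 0.25, 0.347 and 0.354 CPM in sgCtl, 2.15, 2.17 and 1.38 in sgXIST7 and 0.638, 1.54 and 0.82 in sgXIST9. Every KD library lay above every sgCtl library at the same oxygen. The log2 fold change was 1.95 (SE 0.38, adjusted p = 0.0011) for sgXIST7 and 2.51 (SE 0.38, adjusted p = 8.9e-05) for sgXIST9 in normoxia. In hypoxia it was 2.58 (SE 0.40, adjusted p = 7.7e-05) and 1.65 (SE 0.41, adjusted p = 0.0058). The sgXIST7 call in normoxia was lost without sgCtl normoxia replicate 3 (log2 1.71, adjusted p over the 27 alternatives 2.9e-04 to 0.011). The sgXIST9 call in hypoxia was lost without any 1 of 3 libraries, namely sgCtl hypoxia replicates 1 and 2 and sgXIST9 hypoxia replicate 2 (log2 1.17 to 1.74, adjusted p over the 27 alternatives 0.0033 to 0.064). With 3 libraries against 3, an exact two-sided permutation test of any 1 gene cannot go below p = 0.1, so separation of the libraries alone does not reach 0.05. In sgXIST9 hypoxia also lowered HOXA11, by a log2 change of -1.27 (SE 0.33, adjusted p = 0.0033), a call lost without any 1 of 4 libraries, namely sgXIST9 normoxia replicates 1 and 3 and sgXIST9 hypoxia replicates 1 and 3 (log2 -1.01 to -1.23, adjusted p over the 27 alternatives 5.3e-04 to 0.025). In sgXIST7 the hypoxia change was 0.22, and the difference between its hypoxia response and that of sgCtl was 0.63 (SE 0.57, adjusted p = 0.5). The difference between sgXIST9 and sgCtl was not called either, so the fall is not read as particular to sgXIST9.

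HOXD13 (chr2:176092721-176095944, plus strand) was in normoxia at 2.68, 1.78 and 2.7 CPM in sgCtl, 0.13, 0.278 and 0.392 in sgXIST7 and 0.134, 0.319 and 0.292 in sgXIST9. In hypoxia HOXD13 was at 3.69, 4.47 and 2.92 CPM in sgCtl, 0.191, 0.136 and 0.518 in sgXIST7 and 0.593, 1.09 and 0.379 in sgXIST9. The KD libraries were all below the sgCtl libraries, at 0.13 to 1.09 CPM against 1.78 to 4.47 CPM. Its log2 fold change in normoxia was -3.14 (SE 0.47, adjusted p = 8.7e-05) for sgXIST7 and -3.27 (SE 0.48, adjusted p = 7.6e-05) for sgXIST9. In hypoxia the change was -3.86 (SE 0.48, adjusted p = 1e-05) for sgXIST7 and -2.39 (SE 0.41, adjusted p = 3e-04) for sgXIST9, and all 4 calls held without any 1 library. Oxygen alone gave no call for HOXD13 with all libraries, with log2 changes of 0.63 in sgCtl (adjusted p = 0.17), -0.09 in sgXIST7 (adjusted p = 0.9) and 1.51 in sgXIST9 (adjusted p = 0.02). The change in sgXIST9 was called without the 3 hypoxia replicate 3 libraries (1.78, adjusted p = 0.0033), and so was the lower level in sgXIST7 than in sgXIST9 in hypoxia (-2.32, adjusted p = 0.0053).

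HOXD1, HOXD10 and HOXD11 were at or near 0 in sgCtl in normoxia and were up-regulated in sgXIST7 but not called in sgXIST9. HOXD1 is the 3′ end gene of the HOXD cluster (chr2:176188668-176190907), and HOXD10 (chr2:176116778-176119937) and HOXD11 (chr2:176107280-176109754) are 5′ genes of limb and kidney patterning. In normoxia the HOXD11 counts were 0, 0 and 0 for sgCtl, 0, 0 and 0 for sgXIST9 and 15, 20 and 23 for sgXIST7. Against the detection floor of 3 counts per library, HOXD11 was at least 4.56-fold higher in sgXIST7 than in sgCtl (edgeR adjusted p = 0.0013) and at least 5.89-fold higher than in sgXIST9 (adjusted p = 0.0016). HOXD10 had 0, 0 and 1 counts in sgCtl, 10, 20 and 18 in sgXIST7 and 2, 0 and 2 in sgXIST9 in normoxia. The ratio of the summed counts, scaled by library size, was 33.9 for sgXIST7 over sgCtl, from 48 counts against 1, with an exact 95% interval of 5.8 to 1370 that covers counting error only (edgeR adjusted p = 0.0054), and the call was lost without any 1 of 5 libraries, namely sgCtl normoxia replicates 1, 2 and 3 and sgXIST7 normoxia replicates 2 and 3 (log2 4.29 to 6.83, adjusted p over the 25 alternatives 4.1e-04 to 0.029). Over sgXIST9 the HOXD10 ratio was 10.9, from 48 counts against 4 (interval 4 to 41.7), and was not called (adjusted p = 0.021), although it was without the 3 hypoxia replicate 3 libraries (log2 3.36, adjusted p = 0.0021). HOXD1 was in normoxia at 0.335, 0 and 0.23 CPM in sgCtl, 1.25, 2.28 and 2.61 in sgXIST7 and 0.134, 0.372 and 0.175 in sgXIST9, and its log2 fold change in sgXIST7 was 3.33 (SE 0.54, adjusted p = 2e-04) against sgCtl and 3.15 (SE 0.51, adjusted p = 4.2e-04) against sgXIST9. The sgXIST7 libraries lay above all others in normoxia for HOXD1, HOXD10 and HOXD11, while sgXIST9 and sgCtl overlapped.

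In hypoxia all 3 of these HOXD genes were counted in each sgCtl library, and sgXIST7 was again the highest group. HOXD1 was in hypoxia at 1.25, 1.39 and 1.51 CPM in sgCtl, 3.15, 3.85 and 6.3 in sgXIST7 and 0.912, 0.771 and 0.568 in sgXIST9. HOXD10 was in hypoxia at 0.25, 0.198 and 0.975 CPM in sgCtl, 1.82, 3.35 and 5.87 in sgXIST7 and 0.182, 0.454 and 0.884 in sgXIST9. HOXD11 was in hypoxia at 1.06, 0.695 and 2.75 CPM in sgCtl, 2.63, 4.76 and 6.56 in sgXIST7 and 0.501, 0.862 and 1.2 in sgXIST9. The sgXIST7 libraries lay above every other library for HOXD1 and HOXD10, whereas for HOXD11 the highest sgCtl library, replicate 3, lay above the lowest sgXIST7 library. Against sgCtl the change in sgXIST7 was 1.67 (SE 0.41, adjusted p = 0.0039) for HOXD1 and 3.06 (SE 0.64, adjusted p = 0.0012) for HOXD10, and for HOXD11 it was 1.68 (SE 0.49, adjusted p = 0.016), which missed the threshold. The HOXD11 change passed it without the 3 hypoxia replicate 3 libraries (2.09, adjusted p = 0.0014). Against sgXIST9 it was 2.52 (SE 0.42, adjusted p = 5.8e-04) for HOXD1, 2.88 (SE 0.61, adjusted p = 0.0036) for HOXD10 and 2.44 (SE 0.51, adjusted p = 0.0053) for HOXD11. The HOXD1 call against sgCtl was lost without any 1 of 3 libraries, namely sgCtl hypoxia replicates 1 and 2 and sgXIST7 hypoxia replicate 3 (log2 1.34 to 1.67, adjusted p over the 27 alternatives 2.8e-04 to 0.024) and also without the 3 hypoxia replicate 3 libraries together, and the HOXD10 call was lost without any 1 of 2 libraries, namely sgCtl hypoxia replicates 1 and 2 (log2 2.63 to 2.76, adjusted p over the 26 alternatives 6.1e-05 to 0.014). Against sgXIST9 the HOXD10 call was lost without any 1 of 4 libraries, namely sgXIST7 hypoxia replicates 2 and 3 and sgXIST9 hypoxia replicates 1 and 2 (log2 2.40 to 2.93, adjusted p over the 26 alternatives 1.9e-04 to 0.028) and the HOXD11 call was lost without any 1 of 4 libraries, namely sgXIST7 hypoxia replicates 2 and 3 and sgXIST9 hypoxia replicates 1 and 2 (log2 2.14 to 2.47, adjusted p over the 27 alternatives 1.9e-04 to 0.033).

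Hypoxia up-regulated HOXD11 in all 3 lines. The increase was at least 7.44-fold in sgCtl (adjusted p = 1.8e-04) and at least 5.47-fold in sgXIST9 (adjusted p = 3.1e-04), both from 0 counts, and the log2 change in sgXIST7 was 2.32 (SE 0.50, adjusted p = 0.0013). HOXD1 rose in sgCtl, with 5, 0 and 4 counts in normoxia and 20, 28 and 17 in hypoxia and a log2 change of 2.76 (SE 0.56, adjusted p = 6.1e-04). In sgXIST7 and sgXIST9 HOXD1 changed by a log2 change of 1.10 (adjusted p = 0.022) and 1.73 (adjusted p = 0.013), neither called although the libraries did not overlap. The sgXIST9 change was called without the 3 hypoxia replicate 3 libraries (1.89, adjusted p = 0.0067). HOXD10 rose in sgXIST7 by a log2 change of 2.23 (SE 0.57, adjusted p = 0.0029), a call lost without any 1 of 3 libraries, namely sgXIST7 normoxia replicates 1 and 3 and sgXIST7 hypoxia replicate 3 (log2 1.76 to 2.25, adjusted p over the 26 alternatives 2.1e-04 to 0.021). In sgCtl the HOXD10 ratio was 18.1 (19 counts against 1, exact 95% interval 2.88 to 753, adjusted p = 0.017) and in sgXIST9 it was 6.83 (28 against 4, interval 2.39 to 26.8, adjusted p = 0.021), neither of them called. Of the exon bases of HOXD1 in the count table, 7.69% lie opposite HAGLR exons and 3.13% hold MIR7704 on the same strand. The strand setting of the counting is not given in the sources used here, so without it reads from opposite strands cannot be told apart. In the exon lists of the count table HOXA11, HOXA13, HOXD10, HOXD11 and HOXD13 overlap no other gene. The GENCODE v44 annotation holds more isoforms, and there exons of HOXA11-AS lie opposite 27.2% of the HOXA11 exon bases, exons of HAGLR and of an unnamed gene lie opposite 60.1% of those of HOXD1, exons of HOTTIP lie opposite 1.72% of those of HOXA13, and HOXD10 exons on the same strand cover 26.5% of those of HOXD11. The values of HOXA11, HOXD1 and HOXD11 are uncertain to that extent, while HOXD10 and HOXD13 exon bases have no such overlap in either annotation.

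**Figure D3:**
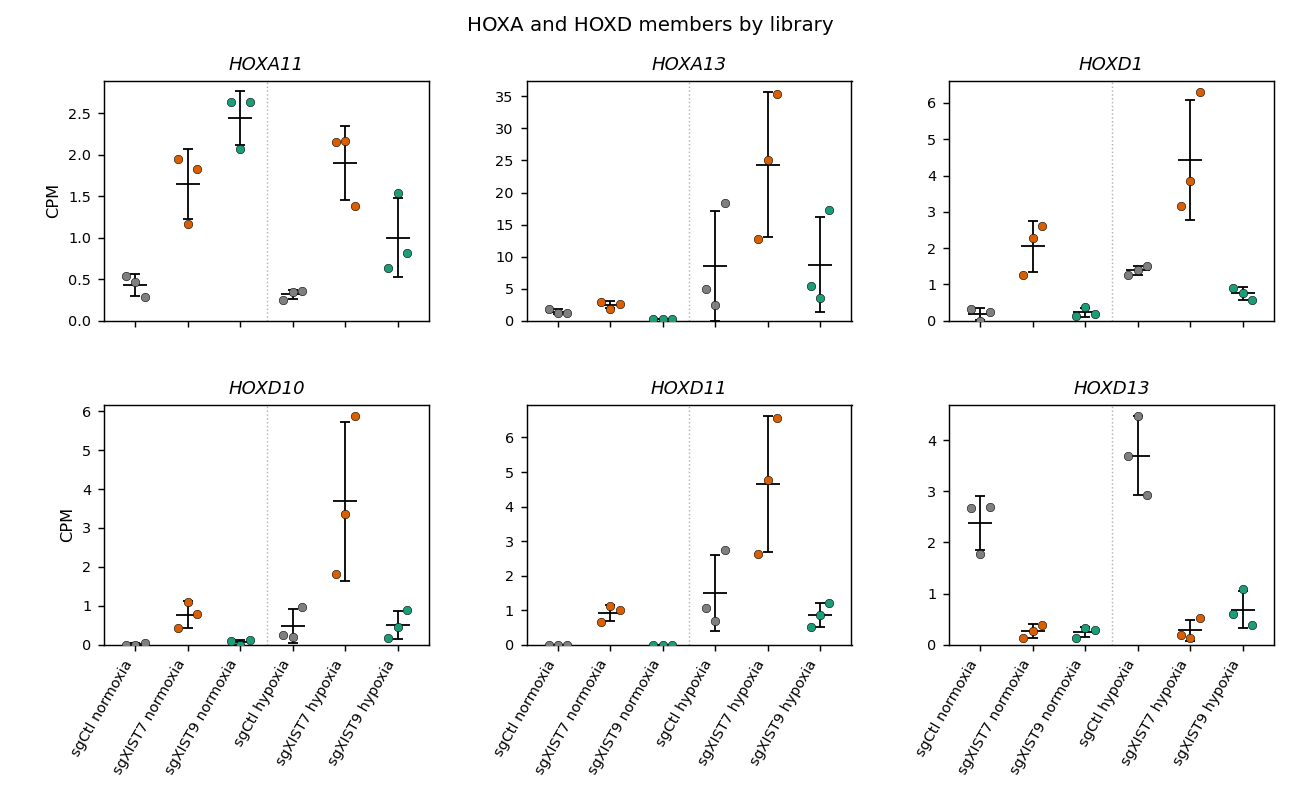
CPM of HOXA11, HOXA13, HOXD1, HOXD10, HOXD11 and HOXD13 in the 18 libraries (points), with the group mean (wide bar) and SD (error bar, n = 3); normoxia is left and hypoxia right of the dotted line. HOXA11 is higher and HOXD13 lower in the KD libraries on both sides, sgXIST7 is highest for HOXD1, HOXD10 and HOXD11, and HOXA13 is spread widely in hypoxia, from 2.38 to 35.3 CPM.

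The 250 bases before the RefSeq start (GRCh38.p14) are shown for the 6 HOX genes with a window that were called higher in at least 1 comparison, 5′ to 3′ on the gene's strand. Capitals mark ACGTG, the core letters of a hypoxia response element, or GCGTG, another form of that core, read on either strand (so CACGT or CACGC on the strand printed, and CACGTG holds ACGTG on both strands).
HOXA6 (chr7:27147775-27148024, minus strand): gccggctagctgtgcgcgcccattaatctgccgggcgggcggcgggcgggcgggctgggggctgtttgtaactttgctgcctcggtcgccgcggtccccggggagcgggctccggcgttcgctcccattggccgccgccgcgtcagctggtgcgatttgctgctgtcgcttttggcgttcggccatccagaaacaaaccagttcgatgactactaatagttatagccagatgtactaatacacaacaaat
HOXA11 (chr7:27185233-27185482, minus strand): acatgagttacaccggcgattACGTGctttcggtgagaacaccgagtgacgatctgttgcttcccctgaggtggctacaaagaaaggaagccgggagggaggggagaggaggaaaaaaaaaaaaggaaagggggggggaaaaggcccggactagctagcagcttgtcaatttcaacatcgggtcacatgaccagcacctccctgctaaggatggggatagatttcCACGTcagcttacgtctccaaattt
HOXA13 (chr7:27200092-27200341, minus strand): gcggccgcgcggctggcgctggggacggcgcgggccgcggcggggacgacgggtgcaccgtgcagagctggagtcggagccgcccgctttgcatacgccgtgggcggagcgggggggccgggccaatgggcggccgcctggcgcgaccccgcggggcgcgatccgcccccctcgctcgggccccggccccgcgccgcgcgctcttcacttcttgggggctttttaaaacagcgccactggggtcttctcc
HOXD1 (chr2:176188418-176188667, plus strand): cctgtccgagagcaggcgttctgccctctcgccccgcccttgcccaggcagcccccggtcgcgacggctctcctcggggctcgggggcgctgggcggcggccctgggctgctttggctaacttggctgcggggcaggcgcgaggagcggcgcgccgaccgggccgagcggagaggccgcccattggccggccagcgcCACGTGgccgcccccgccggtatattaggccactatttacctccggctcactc
HOXD10 (chr2:176116528-176116777, plus strand): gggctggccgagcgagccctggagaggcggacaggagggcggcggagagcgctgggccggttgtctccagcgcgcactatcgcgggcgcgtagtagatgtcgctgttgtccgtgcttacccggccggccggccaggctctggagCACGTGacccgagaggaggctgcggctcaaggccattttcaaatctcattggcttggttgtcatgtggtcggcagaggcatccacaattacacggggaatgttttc
HOXD11 (chr2:176107030-176107279, plus strand): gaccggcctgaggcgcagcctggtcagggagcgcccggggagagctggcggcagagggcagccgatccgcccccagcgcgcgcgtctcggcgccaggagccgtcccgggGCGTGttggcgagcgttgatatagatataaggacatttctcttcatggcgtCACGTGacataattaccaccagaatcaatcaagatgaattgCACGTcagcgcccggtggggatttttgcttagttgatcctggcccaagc
The windows of HOXA11, HOXD1, HOXD10 and HOXD11 hold ACGTG, that of HOXD11 also holds GCGTG, and those of HOXA6 and HOXA13 hold neither. Windows were given for 20 of the 39 HOX genes, of which HOXC4 and HOXC5 share 1, and 13 of the 20 (65%) hold ACGTG on either strand, beside 18.7% of 27305 windows of the same length over all genes. For GCGTG the shares were 35% and 31.9%. The median observed-to-expected CpG ratio was 0.89 in the HOX windows and 0.56 over all genes, at a median GC content of 59 and 58%. A match of letters in this window is a description and not a bound site.

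In the HOXC cluster, the central genes were lower in the KD libraries. HOXC8, a gene of thoracic identity, HOXC6 and HOXC9 beside it, and HOXC10, a gene of lumbar identity, had every KD library below every sgCtl library at the same oxygen. HOXC8 (chr12:54008985-54012769) was in normoxia at 8.99, 13 and 9.7 CPM in sgCtl, 4.41, 6.39 and 4.88 in sgXIST7 and 3.75, 3.29 and 2.86 in sgXIST9. In hypoxia HOXC8 was at 6.69, 7.29 and 6.11 CPM in sgCtl, 3.06, 3.53 and 4.75 in sgXIST7 and 2.83, 2.59 and 2.52 in sgXIST9. It was down-regulated in 3 of the 4 KD comparisons, by a log2 change of -1.02 (SE 0.21, adjusted p = 0.0015) in sgXIST7 and -1.67 (SE 0.21, adjusted p = 1.6e-05) in sgXIST9 in normoxia and by a log2 change of -1.34 (SE 0.22, adjusted p = 1.6e-04) in sgXIST9 in hypoxia. In sgXIST7 in hypoxia the change of -0.84 (SE 0.21, adjusted p = 0.0046) was under the fold threshold, and it was called without the 3 hypoxia replicate 3 libraries (-1.08, adjusted p = 0.0011). The sgXIST7 call in normoxia was lost without any 1 of 3 libraries, namely sgCtl normoxia replicate 2 and sgXIST7 normoxia replicates 1 and 3 (log2 -0.84 to -0.97, adjusted p over the 27 alternatives 2.4e-05 to 0.013).

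HOXC6 was in normoxia at 7.92, 8.51 and 8.78 CPM in sgCtl, 3.37, 5.55 and 3.92 in sgXIST7 and 2.45, 2.44 and 2.45 in sgXIST9. In hypoxia HOXC6 was at 7, 8.29 and 7.35 CPM in sgCtl, 6.78, 5.17 and 5.87 in sgXIST7 and 4.69, 4.99 and 3.16 in sgXIST9. sgXIST9 in normoxia was the lowest group and the 1 comparison called, at -1.78 (SE 0.22, adjusted p = 1e-05), with -0.98 (SE 0.21, adjusted p = 0.0022) in sgXIST7. In hypoxia the changes of -0.35 in sgXIST7 (adjusted p = 0.19) and -0.81 in sgXIST9 (adjusted p = 0.0071) were under the fold threshold. HOXC4, HOXC5 and HOXC6 share 527 exon bases on the same strand, 22.4, 24.6 and 24.2% of their exon lengths, so reads in that stretch cannot be given to 1 of them and their values are uncertain to that extent. In GENCODE v44, where more isoforms are listed, 75.3% of the HOXC5 exon bases and 8.41% of those of HOXC10 lie under exons of other genes on the same strand.

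HOXC9 was in normoxia at 10.7, 12.1 and 10.6 CPM in sgCtl, 5.06, 7.55 and 4.88 in sgXIST7 and 3.57, 4.25 and 3.62 in sgXIST9. In hypoxia HOXC9 was at 8.13, 8.34 and 9.04 CPM in sgCtl, 4.16, 4.58 and 5.27 in sgXIST7 and 3.78, 5.45 and 3.22 in sgXIST9. It was down-regulated in sgXIST9 at both oxygen levels, by a log2 change of -1.55 (SE 0.21, adjusted p = 3.7e-05) and -1.03 (SE 0.21, adjusted p = 0.0014), and changed by a log2 change of -0.94 and -0.87 in sgXIST7 with adjusted p of 0.003 and 0.0036. The hypoxia call was lost without any 1 of 3 libraries, namely sgCtl hypoxia replicate 3 and sgXIST9 hypoxia replicates 1 and 3 (log2 -0.88 to -0.98, adjusted p over the 27 alternatives 1.3e-05 to 0.041). HOXC10 was in normoxia at 25, 30.5 and 24.8 CPM in sgCtl, 13.9, 16.1 and 14.7 in sgXIST7 and 11.3, 13.5 and 13.3 in sgXIST9. In hypoxia HOXC10 was at 22, 23.8 and 20.4 CPM in sgCtl, 14.8, 13 and 11.5 in sgXIST7 and 15.1, 18.7 and 12.2 in sgXIST9. Its 1 call, -1.07 (SE 0.16, adjusted p = 6.5e-05) in sgXIST9 in normoxia, stood close to the fold threshold and was lost without any 1 of 2 libraries, namely sgCtl normoxia replicate 2 and sgXIST9 normoxia replicate 1 (log2 -0.97 to -0.99, adjusted p over the 27 alternatives 6.3e-10 to 8.8e-04). The other KD changes of HOXC10 were -0.84, -0.75 and -0.52 (adjusted p = 6.1e-04, 0.0011 and 0.017). None of HOXC6, HOXC8, HOXC9 and HOXC10 was called between normoxia and hypoxia in any line, with log2 changes from -0.65 to 0.81.

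HOXD9, the highest HOXD gene per length, followed the same order in normoxia at 15.3, 15.2 and 16.4 CPM in sgCtl, 12, 8.44 and 10.2 in sgXIST7 and 7.54, 7.28 and 8.53 in sgXIST9. In hypoxia HOXD9 was at 11.4, 12.7 and 12.8 CPM in sgCtl, 11, 9.15 and 12.8 in sgXIST7 and 9.12, 9.58 and 8.9 in sgXIST9. In normoxia both KD groups lay below sgCtl without overlap but overlapped each other, at 8.44 to 12 CPM in sgXIST7 and 7.28 to 8.53 in sgXIST9. In hypoxia the sgXIST7 libraries overlapped sgCtl. Its log2 fold change was -1.01 (SE 0.15, adjusted p = 1.1e-04) in sgXIST9 and -0.61 (SE 0.15, adjusted p = 0.0068) in sgXIST7 in normoxia, and the sgXIST9 call was lost without any 1 of 3 libraries, namely sgCtl normoxia replicate 3 and sgXIST9 normoxia replicates 1 and 2 (log2 -0.96 to -0.99, adjusted p over the 27 alternatives 7.3e-09 to 0.0014) and with DESeq2. In hypoxia the change of HOXD9 was -0.17 in sgXIST7 (adjusted p = 0.39) and -0.42 in sgXIST9 (adjusted p = 0.048).

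Hypoxia lowered HOXC4 and HOXD8, the 3′ members of the expressed blocks of their clusters. HOXC4 was in normoxia at 4.36, 3.33 and 3.39 CPM in sgCtl, 3.55, 5.5 and 2.74 in sgXIST7 and 1.92, 2.44 and 2.69 in sgXIST9. In hypoxia HOXC4 was at 0.188, 0.0496 and 1.06 CPM in sgCtl, 0.573, 0.589 and 1.64 in sgXIST7 and 0.729, 0.59 and 1.14 in sgXIST9. The hypoxia libraries lay below the normoxia libraries in each line, and in each line replicate 3 was the highest of the hypoxia libraries. The change was -3.31 (SE 0.61, adjusted p = 2.8e-04) in sgCtl, -2.16 (SE 0.53, adjusted p = 0.0022) in sgXIST7 and -1.54 (SE 0.53, adjusted p = 0.022) in sgXIST9, the last of these not called. Without the 3 hypoxia replicate 3 libraries, the fall in sgXIST9 was called (-1.81, adjusted p = 3.3e-04), and HOXC4 was called higher than in sgCtl in hypoxia in sgXIST7 (2.32, adjusted p = 0.0055) and sgXIST9 (adjusted p = 0.004). The sgXIST7 call was lost without any 1 of 3 libraries, namely sgXIST7 normoxia replicate 2 and sgXIST7 hypoxia replicates 1 and 2 (log2 -1.85 to -1.89, adjusted p over the 27 alternatives 4.9e-06 to 0.019). HOXD8 was in normoxia at 10.3, 11.7 and 12.1 CPM in sgCtl, 10.9, 9.22 and 9.85 in sgXIST7 and 9.82, 8.98 and 10.6 in sgXIST9. In hypoxia HOXD8 was at 4.06, 4.81 and 6.38 CPM in sgCtl, 6.93, 6.48 and 7.6 in sgXIST7 and 5.2, 6.4 and 7.07 in sgXIST9. Again the hypoxia libraries of each line were all lower, with a log2 change of -1.17 (SE 0.18, adjusted p = 4.3e-05) in sgCtl and, short of the fold threshold, -0.52 (SE 0.17, adjusted p = 0.016) in sgXIST7 and -0.66 (SE 0.17, adjusted p = 0.0041) in sgXIST9. In GENCODE v44 24.5% of the HOXD8 exon bases lie opposite HOXD-AS2. HOXC5 and HOXC13 were called in none of the KD or hypoxia comparisons with all libraries. Without the 3 hypoxia replicate 3 libraries, HOXC5 was called lower with hypoxia in sgCtl (-3.13, adjusted p = 3.9e-04). HOXC13 was then called higher with hypoxia in sgCtl (1.31, adjusted p = 2.6e-04) and sgXIST9 (1.27, adjusted p = 3e-04) and lower in sgXIST7 than in sgCtl in hypoxia (-1.22, adjusted p = 0.0014). HOXC5 ranged from 0.125 to 3.02 CPM and HOXC13 from 1.77 to 10.1 CPM, and in hypoxia the replicate 3 libraries held the lowest HOXC13 value of each line.

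**Figure D4:**
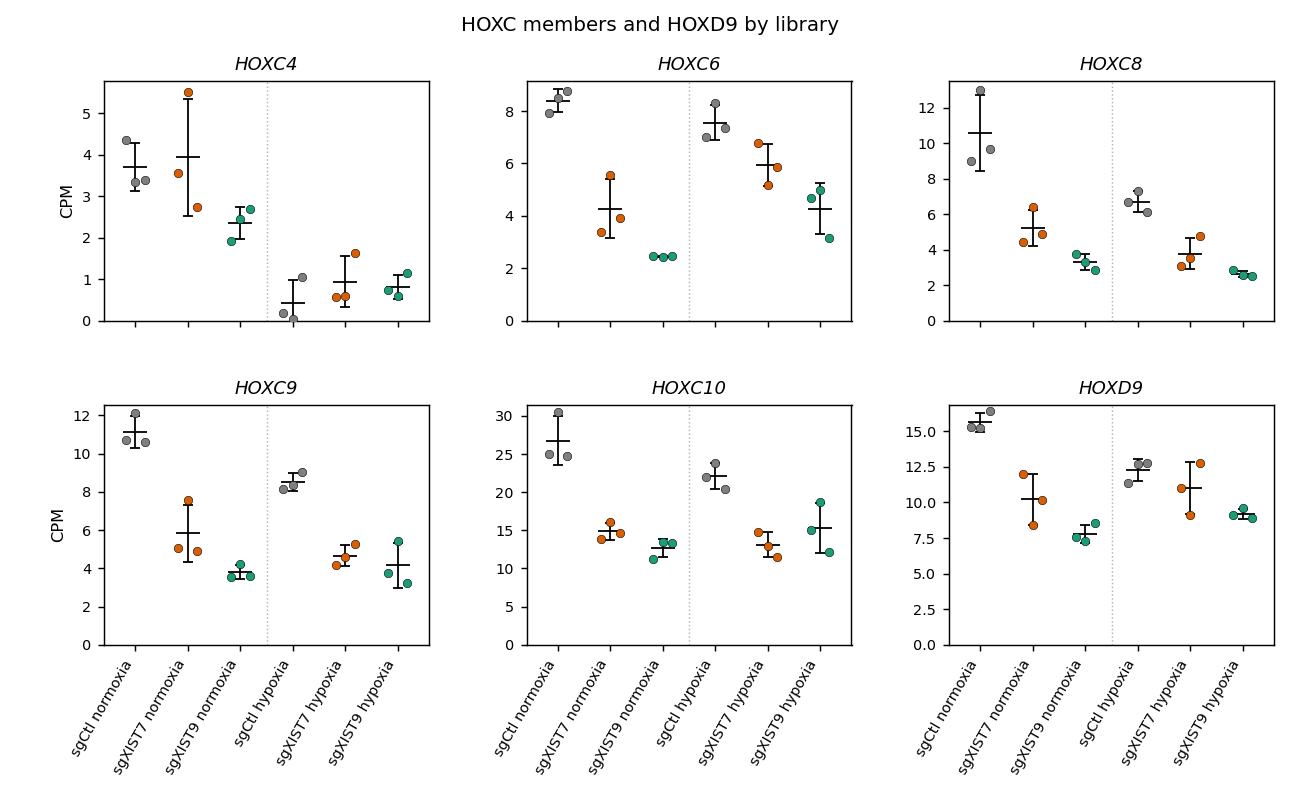
CPM of HOXC4, HOXC6, HOXC8, HOXC9, HOXC10 and HOXD9 in the 18 libraries (points), with the group mean (wide bar) and SD (error bar, n = 3); normoxia is left and hypoxia right of the dotted line. For HOXC6, HOXC8, HOXC9 and HOXC10 the sgCtl libraries are above all KD libraries on the same side, and HOXC4 falls from 1.92 to 5.5 CPM in normoxia to 0.0496 to 1.64 CPM in hypoxia.

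The HOXB cluster, whose genes act from the hindbrain to the trunk, differed between the lines of the XIST guides, where guide and clone cannot be told apart. Summed over its 10 genes, it took 110, 103 and 99.3 CPM in sgCtl, 58.7, 67.1 and 57.7 in sgXIST7 and 106, 110 and 105 in sgXIST9 in normoxia. In hypoxia the sums were 85.5, 99.9 and 49.4 CPM in sgCtl, 90, 88.8 and 81.5 in sgXIST7 and 222, 246 and 207 in sgXIST9. The sgXIST7 libraries were thus the lowest in normoxia and the sgXIST9 libraries the highest in hypoxia, without overlap. Against sgCtl in normoxia HOXB6, HOXB7 and HOXB8 were called lower in sgXIST7, and HOXB8 was called higher in sgXIST9. In hypoxia HOXB2 to HOXB8, that is 7 of the 9 tested HOXB genes, were called higher in sgXIST9, and HOXB4 was called higher in sgXIST7.

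HOXB4, known for its part in blood stem cell growth, was in normoxia at 21, 17.2 and 16.8 CPM in sgCtl, 10.1, 11.9 and 10.5 in sgXIST7 and 19.1, 20.8 and 17.5 in sgXIST9. In hypoxia HOXB4 was at 15.4, 15 and 7.89 CPM in sgCtl, 27.5, 28.3 and 26.6 in sgXIST7 and 69.2, 71.7 and 53.1 in sgXIST9. In hypoxia the 3 guides did not overlap, with sgXIST9 highest and sgCtl lowest. The log2 fold change against sgCtl in hypoxia was 2.33 (SE 0.19, adjusted p = 1.3e-07) in sgXIST9 and 1.09 (SE 0.19, adjusted p = 2.6e-04) in sgXIST7, and between the guides it was -1.24 (SE 0.19, adjusted p = 2e-04). The sgXIST7 call was lost without sgCtl hypoxia replicate 3 (log2 0.85, adjusted p over the 27 alternatives 2.4e-07 to 0.018), the lowest sgCtl library. In normoxia the changes were -0.76 in sgXIST7 (adjusted p = 0.0081) and 0.06 in sgXIST9 (adjusted p = 0.86). Hypoxia raised HOXB4 by a log2 change of 1.34 (SE 0.19, adjusted p = 1.3e-05) in sgXIST7 and 1.76 (SE 0.19, adjusted p = 7.7e-07) in sgXIST9, while sgCtl changed by a log2 change of -0.51 (SE 0.19, adjusted p = 0.036).

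HOXB8, the member of the cluster with the largest fold change, was in normoxia at 1.34, 1.7 and 0.689 CPM in sgCtl, 0.303, 0.611 and 0.436 in sgXIST7 and 3.17, 3.29 and 2.98 in sgXIST9. In hypoxia HOXB8 was at 0.625, 0.695 and 0.532 CPM in sgCtl, 0.764, 1.72 and 1.64 in sgXIST7 and 8.93, 9.44 and 10.3 in sgXIST9. The sgXIST9 libraries lay above all others at each oxygen level, and in normoxia the sgXIST7 libraries lay below all others. HOXB8 was higher in sgXIST9 than in sgCtl by a log2 change of 3.92 (SE 0.34, adjusted p = 2.3e-07) in hypoxia, a call that held without any 1 library. In normoxia the change was 1.36 (SE 0.32, adjusted p = 0.005) in sgXIST9 and -1.45 (SE 0.37, adjusted p = 0.0088) in sgXIST7. These normoxia calls were less stable: that of sgXIST9 was lost without any 1 of 5 libraries, namely sgCtl normoxia replicates 1 and 3 and sgXIST9 normoxia replicates 1, 2 and 3 (log2 1.05 to 1.43, adjusted p over the 27 alternatives 3.9e-04 to 0.034), and that of sgXIST7 was lost without any 1 of 12 libraries, namely sgCtl normoxia replicates 1 and 2, sgCtl hypoxia replicates 1 and 2, sgXIST7 normoxia replicates 1 and 3, sgXIST9 normoxia replicates 1, 2 and 3 and sgXIST9 hypoxia replicates 1, 2 and 3 (log2 -1.17 to -1.46, adjusted p over the 27 alternatives 0.0026 to 0.054). sgXIST7 was below sgXIST9 by a log2 change of -2.81 (SE 0.35, adjusted p = 2.7e-05) in normoxia and -2.81 (SE 0.31, adjusted p = 8.4e-06) in hypoxia. In hypoxia sgXIST7 differed from sgCtl by a log2 change of 1.11 (SE 0.36, adjusted p = 0.021), not called. Hypoxia raised HOXB8 in sgXIST7 by a log2 change of 1.60 (SE 0.36, adjusted p = 0.0011), a call lost without sgXIST7 hypoxia replicate 2 (log2 1.37, adjusted p over the 27 alternatives 1.7e-04 to 0.01), and in sgXIST9 by a log2 change of 1.60 (SE 0.29, adjusted p = 1.7e-04), with -0.96 (SE 0.37, adjusted p = 0.04) in sgCtl.

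HOXB6 was in normoxia at 11.9, 11.7 and 10.3 CPM in sgCtl, 3.37, 4.22 and 5.36 in sgXIST7 and 13.3, 15.1 and 14.8 in sgXIST9. In hypoxia HOXB6 was at 5.5, 6.35 and 1.77 CPM in sgCtl, 4.68, 6.25 and 5.18 in sgXIST7 and 28.3, 30.2 and 29.9 in sgXIST9. The sgXIST9 libraries were the highest under both conditions, and sgXIST7 was below sgCtl in normoxia and overlapped it in hypoxia. HOXB6 was lower in sgXIST7 than in sgCtl by a log2 change of -1.38 (SE 0.28, adjusted p = 0.0015) in normoxia, a call lost without sgXIST7 normoxia replicate 1 (log2 -1.23, adjusted p over the 27 alternatives 4.7e-06 to 0.012). It was higher in sgXIST9 than in sgCtl by a log2 change of 2.66 (SE 0.29, adjusted p = 2.5e-06) in hypoxia. Hypoxia moved HOXB6 in opposite directions, by a log2 change of -1.27 (SE 0.28, adjusted p = 0.0013) in sgCtl and 1.03 (SE 0.26, adjusted p = 0.0032) in sgXIST9. The sgCtl call was lost without sgCtl hypoxia replicate 3 (log2 -0.92, adjusted p over the 27 alternatives 2.5e-05 to 0.032), and the sgXIST9 call was lost without any 1 of 3 libraries, namely sgXIST9 normoxia replicates 1, 2 and 3 (log2 0.97 to 1.06, adjusted p over the 27 alternatives 1.8e-05 to 0.018). sgXIST7 was below sgXIST9 by a log2 change of -1.74 (SE 0.28, adjusted p = 4.2e-04) in normoxia and -2.45 (SE 0.28, adjusted p = 1.2e-05) in hypoxia. Of the HOXB6 exon bases 8.5% lie opposite HOXB-AS3 in the count table and 15.6% in GENCODE v44, with 22.2% under HOXB3 exons of the same strand.

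HOXB7 was in normoxia at 22.7, 17.2 and 18.9 CPM in sgCtl, 6.96, 6.22 and 6.67 in sgXIST7 and 21.3, 22.6 and 21.7 in sgXIST9. In hypoxia HOXB7 was at 13.9, 16.4 and 5.49 CPM in sgCtl, 8.27, 5.44 and 4.75 in sgXIST7 and 28.8, 29.5 and 23.5 in sgXIST9. sgXIST7 was lower than both other groups in normoxia, and in hypoxia sgXIST9 was higher than both. The log2 fold change of sgXIST7 in normoxia was -1.56 (SE 0.28, adjusted p = 4.6e-04) against sgCtl and -1.72 (SE 0.28, adjusted p = 4.2e-04) against sgXIST9. In hypoxia it was 1.18 (SE 0.27, adjusted p = 0.0032) for sgXIST9 against sgCtl, lost without any 1 of 3 libraries, namely sgCtl hypoxia replicate 3 and sgXIST9 hypoxia replicates 1 and 2 (log2 0.85 to 1.13, adjusted p over the 27 alternatives 2.5e-04 to 0.074), and -2.13 (SE 0.28, adjusted p = 5.3e-05) for sgXIST7 against sgXIST9. In sgXIST7 in hypoxia the change of -0.96 (SE 0.28, adjusted p = 0.012) against sgCtl was called without the 3 hypoxia replicate 3 libraries (-1.14, adjusted p = 5.6e-05). HOXB5 was in normoxia at 1.01, 1.39 and 1.38 CPM in sgCtl, 0.346, 0.611 and 0.261 in sgXIST7 and 2.23, 2.55 and 1.64 in sgXIST9. In hypoxia HOXB5 was at 0.25, 0.844 and 0.177 CPM in sgCtl, 0.526, 0.498 and 0.604 in sgXIST7 and 1.69, 3.27 and 3.16 in sgXIST9. It was low throughout, with sgXIST9 the highest group at each oxygen level. In normoxia the change in sgXIST7 of -1.65 (SE 0.46, adjusted p = 0.014) was not called, but with a replicate block it was (-1.67, adjusted p = 0.0061), as it was without the 3 hypoxia replicate 3 libraries (-1.66, adjusted p = 0.0068). HOXB5 was higher in sgXIST9 than in sgCtl in hypoxia by a log2 change of 2.53 (SE 0.44, adjusted p = 3.2e-04), and sgXIST7 was below sgXIST9 by a log2 change of -2.41 (SE 0.43, adjusted p = 0.0012) in normoxia and -2.32 (SE 0.43, adjusted p = 0.0012) in hypoxia. Between the guides the normoxia call was lost without any 1 of 2 libraries, namely sgXIST7 normoxia replicates 1 and 3 (log2 -2.17 to -2.32, adjusted p over the 27 alternatives 1.5e-05 to 0.012), and the hypoxia call was lost without sgXIST7 hypoxia replicate 2 (log2 -2.25, adjusted p over the 27 alternatives 2.5e-05 to 0.011).

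HOXB2, a hindbrain gene, was in normoxia at 22.7, 21.5 and 21.9 CPM in sgCtl, 14.2, 16.5 and 12.2 in sgXIST7 and 14.3, 14.7 and 14.2 in sgXIST9. In hypoxia HOXB2 was at 16.3, 16.4 and 13.1 CPM in sgCtl, 21.7, 21.4 and 23.7 in sgXIST7 and 29.3, 31.1 and 39.4 in sgXIST9. Both KD groups lay below sgCtl in normoxia and above it in hypoxia. The normoxia changes of -0.63 in sgXIST7 (adjusted p = 0.0029) and -0.62 in sgXIST9 (adjusted p = 0.0036) were under the fold threshold. In hypoxia sgXIST9 was higher by a log2 change of 1.12 (SE 0.14, adjusted p = 1.1e-05), a call lost without sgXIST9 hypoxia replicate 3 (log2 0.98, adjusted p over the 27 alternatives 5.5e-12 to 0.0077). HOXB3 was in normoxia at 12.1, 15.8 and 11.8 CPM in sgCtl, 10.4, 11.7 and 7.36 in sgXIST7 and 13.6, 13.1 and 11.6 in sgXIST9. In hypoxia HOXB3 was at 11.8, 16.4 and 6.56 CPM in sgCtl, 14.3, 15.2 and 12.3 in sgXIST7 and 28.3, 33.6 and 20.8 in sgXIST9. HOXB3 was called lower in sgXIST7 than in sgXIST9 in hypoxia without the 3 hypoxia replicate 3 libraries (-1.06, adjusted p = 0.001). Its sgXIST9 libraries in hypoxia lay above the 15 other libraries, with a change of 1.24 (SE 0.26, adjusted p = 0.0015) against sgCtl, lost without sgCtl hypoxia replicate 3 (log2 0.96, adjusted p over the 27 alternatives 3.2e-05 to 0.051), and of 1.11 (SE 0.26, adjusted p = 0.0014) against normoxia, lost without sgXIST9 hypoxia replicate 2 (log2 0.95, adjusted p over the 27 alternatives 1.2e-05 to 0.0089).

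The difference between the hypoxia responses of the lines was tested as an interaction. For sgXIST7 it was called for 3 HOX genes, beside 1.52% of all genes tested, with 3 more upward than in sgCtl, beside 0.904%, and 0 more downward, beside 0.616%. For sgXIST9 it was called for 4, beside 1.01%, with 4 more upward, beside 0.663%, and 0 more downward, beside 0.348%. With all libraries these were HOXB genes alone. An unadjusted p under 0.05 was found for 10 HOX genes in sgXIST7 and 13 in sgXIST9. The share of all genes under that threshold was not computed, so these counts are not read as a result. For HOXB2 hypoxia changed sgCtl by a log2 change of -0.53, sgXIST7 by 0.64 and sgXIST9 by 1.21, a difference of 1.17 (SE 0.20, adjusted p = 0.0028) for sgXIST7 and 1.73 (SE 0.20, adjusted p = 1.2e-04) for sgXIST9. For HOXB4 the difference was 1.85 (SE 0.27, adjusted p = 9.3e-04) and 2.27 (SE 0.27, adjusted p = 1.9e-04). For HOXB8 it was 2.56 (SE 0.52, adjusted p = 0.0081) and 2.56 (SE 0.47, adjusted p = 0.0055), and for HOXB6 it was called in sgXIST9, at 2.30 (SE 0.39, adjusted p = 0.0031), with 1.59 (SE 0.40, adjusted p = 0.023) in sgXIST7. The HOXB2 difference in sgXIST7 was lost without sgXIST7 normoxia replicate 3 (log2 1.07, adjusted p over the 27 alternatives 4.1e-06 to 0.011). The HOXB6 difference in sgXIST9 was lost without any 1 of 5 libraries, namely sgCtl normoxia replicates 1 and 2 and sgXIST9 normoxia replicates 1, 2 and 3 (log2 2.25 to 2.34, adjusted p over the 27 alternatives 4.5e-07 to 0.014). The HOXB8 difference was lost in sgXIST7 without any 1 of 12 libraries, namely sgCtl normoxia replicates 1 and 2, sgCtl hypoxia replicates 1 and 2, sgXIST7 normoxia replicates 1 and 3, sgXIST7 hypoxia replicates 2 and 3, sgXIST9 normoxia replicates 1, 2 and 3 and sgXIST9 hypoxia replicate 1 (log2 2.28 to 2.66, adjusted p over the 27 alternatives 3.9e-04 to 0.035), and in sgXIST9 without any 1 of 9 libraries, namely sgCtl normoxia replicates 1 and 2, sgCtl hypoxia replicates 1 and 2, sgXIST9 normoxia replicates 1, 2 and 3 and sgXIST9 hypoxia replicates 1 and 2 (log2 2.28 to 2.65, adjusted p over the 27 alternatives 6e-05 to 0.023). Without the 3 hypoxia replicate 3 libraries 4 HOX genes were called in sgXIST7 and 7 in sgXIST9, with no share of all genes computed. The added one was HOXB6 in sgXIST7 (1.27, adjusted p = 0.0018). In sgXIST9 the added ones were HOXB3 (1.18, adjusted p = 0.0051), HOXA13 (2.83, adjusted p = 0.0041) and HOXC4 (3.16, adjusted p = 0.0034).

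HOXB9 and HOXB13 were the tested HOXB genes not called in any comparison with sgCtl when all libraries were used. HOXB9 was in normoxia at 5.97, 5.57 and 5.34 CPM in sgCtl, 3.07, 4.17 and 3.18 in sgXIST7 and 4.24, 4.41 and 4.96 in sgXIST9. In hypoxia HOXB9 was at 14.4, 13.8 and 10.2 CPM in sgCtl, 8.12, 8.88 and 5.01 in sgXIST7 and 17.6, 19.2 and 24.1 in sgXIST9. Every hypoxia library was above the normoxia libraries of its line, with log2 changes of 1.19 (SE 0.21, adjusted p = 1.9e-04) in sgCtl, 1.10 (SE 0.22, adjusted p = 3.2e-04) in sgXIST7 and 2.16 (SE 0.21, adjusted p = 3.1e-07) in sgXIST9. The sgXIST7 call was lost without sgXIST7 hypoxia replicate 2 (log2 0.95, adjusted p over the 27 alternatives 2.1e-06 to 0.0053). Neither guide was called against sgCtl, and sgXIST7 was below sgXIST9 in hypoxia by a log2 change of -1.45 (SE 0.21, adjusted p = 1.2e-04). HOXB13, a prostate and hindgut gene far upstream of HOXB9, was in normoxia at 10.9, 10.8 and 12.2 CPM in sgCtl, 9.99, 11.2 and 11.7 in sgXIST7 and 14.7, 13.6 and 15.5 in sgXIST9. In hypoxia HOXB13 was at 7.44, 14 and 3.72 CPM in sgCtl, 4.06, 1.09 and 1.73 in sgXIST7 and 9.66, 17.7 and 2.59 in sgXIST9. In hypoxia the sgXIST7 libraries were all below the normoxia libraries, and in sgCtl and sgXIST9 replicate 3 was the lowest. Hypoxia lowered HOXB13 in sgXIST7 by a log2 change of -2.23 (SE 0.56, adjusted p = 0.0025), a call lost without any 1 of 2 libraries, namely sgXIST7 hypoxia replicates 2 and 3 (log2 -1.85 to -2.08, adjusted p over the 27 alternatives 7.6e-05 to 0.018), and the changes of -0.40 in sgCtl (adjusted p = 0.54) and -0.54 in sgXIST9 (adjusted p = 0.38) were not called. Without the 3 hypoxia replicate 3 libraries, HOXB13 was called lower in sgXIST7 in hypoxia than in sgCtl (-2.08, adjusted p = 0.0021) and than in sgXIST9 (-2.41, adjusted p = 0.0019).

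**Figure D5:**
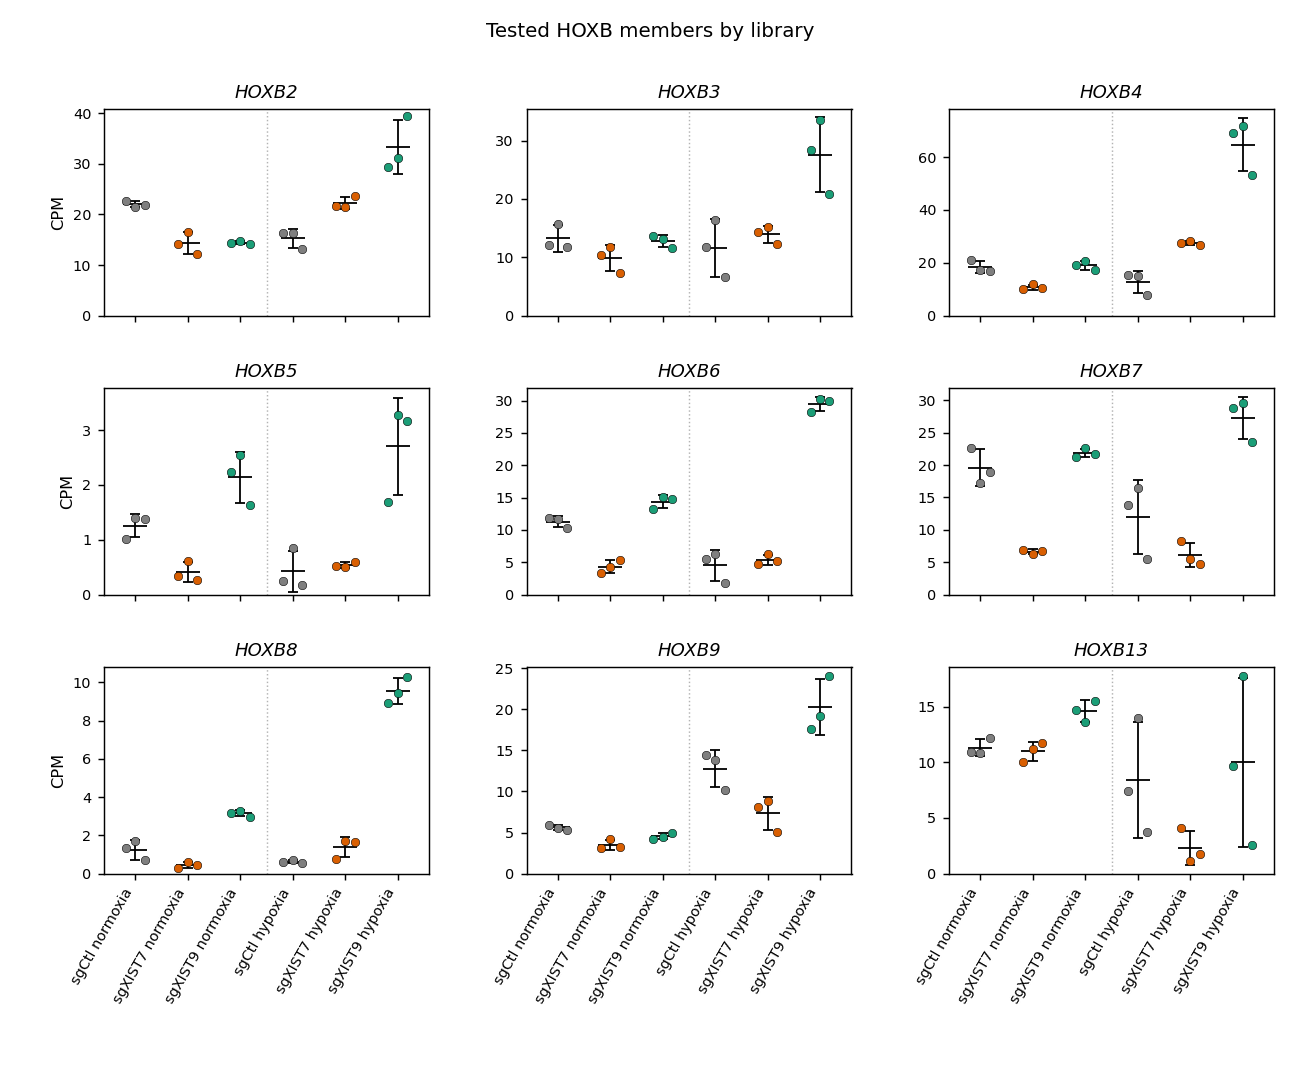
CPM of the 9 tested HOXB genes in the 18 libraries (points), with the group mean (wide bar) and SD (error bar, n = 3); normoxia is left and hypoxia right of the dotted line. sgXIST9 in hypoxia is the highest group for HOXB2 to HOXB9, and sgXIST7 in normoxia lies under sgCtl for HOXB2 and HOXB4 to HOXB9.

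In the HOXA cluster hypoxia raised HOXA5, HOXA6 and HOXA13. HOXA13, the most 5′ gene of the cluster (chr7:27194371-27200091), was in normoxia at 1.81, 1.16 and 1.26 CPM in sgCtl, 2.94, 1.89 and 2.66 in sgXIST7 and 0.268, 0.212 and 0.234 in sgXIST9. In hypoxia HOXA13 was at 5, 2.38 and 18.4 CPM in sgCtl, 12.7, 25.1 and 35.3 in sgXIST7 and 5.42, 3.59 and 17.2 in sgXIST9. All hypoxia libraries were above the normoxia libraries of their line, and in each line replicate 3 was the highest. The log2 change was 2.56 (SE 0.70, adjusted p = 0.0056) in sgCtl, 3.27 (SE 0.65, adjusted p = 3.7e-04) in sgXIST7 and 5.13 (SE 0.85, adjusted p = 8.5e-05) in sgXIST9. The sgCtl call was lost without any 1 of 4 libraries, namely sgCtl normoxia replicates 1, 2 and 3 and sgCtl hypoxia replicate 3 (log2 1.37 to 2.78, adjusted p over the 27 alternatives 8.9e-04 to 0.073). In normoxia the sgXIST9 libraries lay below sgCtl, by a log2 change of -2.53 (SE 0.97, adjusted p = 0.074), which was not called. Without the 3 hypoxia replicate 3 libraries it was called (-2.53, adjusted p = 6.8e-04), and HOXA13 was higher in sgXIST7 than in sgCtl in hypoxia (2.38, adjusted p = 4.7e-05) and than in sgXIST9 in normoxia (3.35, adjusted p = 3.8e-05) and hypoxia (2.07, adjusted p = 4.2e-04).

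HOXA5, a lung and thoracic gene, was in normoxia at 3.76, 3.02 and 3.39 CPM in sgCtl, 4.41, 4.22 and 3.09 in sgXIST7 and 4.11, 5.21 and 4.15 in sgXIST9. In hypoxia HOXA5 was at 6.06, 6.8 and 4.16 CPM in sgCtl, 8.22, 8.16 and 10.1 in sgXIST7 and 10.5, 11.4 and 10.5 in sgXIST9. The hypoxia libraries were above the normoxia libraries in each line, by a log2 change of 1.17 (SE 0.20, adjusted p = 9.4e-05) in sgXIST7 and 1.27 (SE 0.20, adjusted p = 4.7e-05) in sgXIST9, and by a log2 change of 0.75 (SE 0.21, adjusted p = 0.0062) in sgCtl, under the fold threshold. HOXA6, its neighbor, was in normoxia at 1.07, 1.62 and 0.919 CPM in sgCtl, 0.951, 1.44 and 0.915 in sgXIST7 and 1.43, 1.75 and 1.87 in sgXIST9. In hypoxia HOXA6 was at 2.56, 2.48 and 2.39 CPM in sgCtl, 3.49, 4.03 and 3.63 in sgXIST7 and 3.33, 3.99 and 3.85 in sgXIST9. It too was higher in every hypoxia library of each line, by a log2 change of 1.05 (SE 0.25, adjusted p = 0.0023) in sgCtl, 1.76 (SE 0.24, adjusted p = 9.5e-06) in sgXIST7 and 1.15 (SE 0.23, adjusted p = 5.5e-04) in sgXIST9. The sgCtl call was lost without any 1 of 2 libraries, namely sgCtl normoxia replicates 1 and 3 (log2 0.88 to 0.98, adjusted p over the 27 alternatives 9e-04 to 0.022). Of the HOXA6 exon bases 10.6% lie opposite HOXA-AS3 in the count table and 21.1% in GENCODE v44. Neither HOXA5 nor HOXA6 was called in a KD comparison.

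Genes known to act with or upstream of HOX were read from lists. Of all genes, 7.76, 7.70, 14.0 and 9.53% were called in the KD comparisons (sgXIST7 then sgXIST9 in normoxia, then the same in hypoxia). With hypoxia 19.7, 27.3 and 23.3% were called in sgCtl, sgXIST7 and sgXIST9. Each list holds few genes, so no count below is read as a result about the list beside these shares. Of 10 TALE cofactors 8 were tested. MEIS3, a DNA-binding partner of HOX proteins, had means of 4.61 ± 0.532 CPM in sgCtl, 1.68 ± 0.0618 in sgXIST7 and 0.14 ± 0.0647 in sgXIST9 in normoxia (SD, n = 3), and of 10.9 ± 1.82, 3.75 ± 1 and 0.959 ± 0.248 in hypoxia. It was down-regulated in all 4 KD comparisons, with log2 changes of -1.45 in sgXIST7 and -5.00 in sgXIST9 in normoxia and of -1.52 and -3.47 in hypoxia (edgeR adjusted p = 2.8e-04, 9.8e-09, 7.6e-05 and 3.2e-08), and rose with hypoxia in all 3 lines. TGIF2 was higher in sgXIST9 at both oxygen levels (1.57 and 1.41), and TGIF1 was lower in sgXIST9 in normoxia (-1.07). Hypoxia lowered PBX3 in all 3 lines (-1.55, -1.48 and -1.09 in sgCtl, sgXIST7 and sgXIST9) and PBX4 in sgXIST9, and raised TGIF1 in both KD lines.

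Of 14 Trithorax genes, all tested, edgeR and DESeq2 each called 0 in the 4 KD comparisons, beside 7.70 to 14.0% of all genes. In a list of this size a count of 0 is not read as a result. An unadjusted edgeR p under 0.05 was found for 0 to 4 of them, without a share of all genes to set beside it. KDM6B, a demethylase that removes the Polycomb mark, rose with hypoxia by a log2 change of 1.97 (adjusted p = 8.3e-04) in sgCtl, 1.74 (adjusted p = 0.0013) in sgXIST7 and 1.77 (adjusted p = 0.0018) in sgXIST9, whereas PSIP1 fell in sgCtl and sgXIST7 and WDR5 fell in both KD lines. Of 25 Polycomb genes 24 were tested, and both tools called 0 in sgXIST9 against sgCtl, beside 7.70 and 9.53% of all genes called in normoxia and hypoxia. An unadjusted edgeR p under 0.05, a looser threshold, was found for 3 in normoxia and 8 in hypoxia. The share of all genes at that threshold was not computed. EZH2, the methyltransferase that lays down the Polycomb mark, was lower in sgXIST7 by a log2 change of -1.57 (adjusted p = 1.1e-05) in normoxia and -1.97 (adjusted p = 8.8e-07) in hypoxia, where BMI1 was also lower (-1.58) and CBX8 higher (1.10). With hypoxia JARID2 rose and PCGF6 fell in all 3 lines, CBX8 and PHC1 rose in both KD lines, PHF1 rose and CBX2 fell in sgXIST7, and RBBP4 fell in sgCtl.

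Of 18 retinoic acid pathway genes 13 were tested. STRA6, a retinol transporter, was up-regulated in all 4 KD comparisons, at 3.47, 3.19, 3.70 and 3.09, and with hypoxia in all 3 lines. ALDH1A3, which makes retinoic acid, was down-regulated in all 4 KD comparisons, at -4.94, -5.15, -1.82 and -1.84, and rose with hypoxia in both KD lines. CYP26A1, which breaks retinoic acid down, was higher in sgXIST9 in normoxia (adjusted p = 2.3e-07) and in hypoxia (5.65), and so was RDH10, a retinol dehydrogenase (4.34 and 3.49). CRABP2 and DHRS3 were higher in sgXIST7 in hypoxia (3.44 and 1.28). With hypoxia CYP26A1 and CYP26B1 rose in sgXIST9, RARA rose in sgXIST7, and in sgCtl CYP26B1 and RXRB rose and DHRS3 fell.

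Of 12 homeobox regulators and ParaHox genes 6 were tested. CDX2, an upstream activator of trunk HOX genes, was higher in normoxia by a log2 change of 1.84 (adjusted p = 0.0022) in sgXIST7 and 2.08 (adjusted p = 7.8e-04) in sgXIST9, and rose with hypoxia in sgCtl. EGR2, a hindbrain activator of HOXB2, was lower in normoxia by a log2 change of -4.77 (adjusted p = 1.4e-05) and -4.05 (adjusted p = 3.9e-05), and rose with hypoxia in both KD lines. In hypoxia GBX2 was lower in both KD lines (-1.25 and -1.81), and KLF4 was lower in sgXIST9 (-1.84). With hypoxia GMNN fell in all 3 lines, and KLF4 rose in sgCtl. Of 12 genes of Müllerian duct patterning 8 were tested. TBX3 was down-regulated in all 4 KD comparisons, from a mean of 1.71 ± 0.3 CPM in sgCtl (SD, n = 3) to 0 counts in sgXIST7 in normoxia and from 3.84 ± 0.465 to 0.131 ± 0.187 CPM in hypoxia. WNT4 and WNT5A were lower in sgXIST9 in normoxia, and DACH2 was higher in sgXIST7 in hypoxia (1.23). With hypoxia WNT5A fell in sgCtl and sgXIST7, DACH2 fell in sgCtl, PAX8 rose in sgXIST7 and WNT4 rose in sgXIST9.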

How the data were processed

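RNA of OVCAR3 cells carrying dCas9-KRAB (3 guides, normoxia or hypoxia, 3 libraries per group, 18 in all) was prepared with a ribosomal RNA depletion kit. Per the study's methods and the submitters' processing notes, the authors trimmed the paired reads with Trimmomatic, checked them with FastQC, aligned with HISAT2 (build hg38) and took gene totals with featureCounts. The values deposited by the authors are raw counts per gene, not normalized. Versions, the strand setting and the annotation release are not given in the sources used here. The authors' tests used DESeq2.

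Here 2 broken lines with 0 counts were left out of 28279, which left 28277 genes. Counts were analyzed with edgeR 4.0.16 in R 4.3.3: filterByExpr by group (minimum count 10, minimum total 15), TMM factors (0.859 to 1.115), a robust quasi-likelihood fit of the 6 groups over 18 libraries, and contrasts adjusted by Benjamini-Hochberg over 14938 genes. Genes were called at an adjusted p under 0.01 and a log2 fold change over 1 in size; fitted values used a prior count of 0.125. All adjusted p-values are from this edgeR test unless DESeq2 is named. CPM were computed with the TMM library sizes, and 3 counts set the detection floor. Intervals and floors cover counting error only. The fit was tested on simulated data. Alternatives were other thresholds, factors and filters, DESeq2 1.42.0, a replicate block and left-out libraries. No pair of libraries agreed within sampling noise. Deviations of same-numbered libraries from their group means all correlated over 0.1 for sgCtl with sgXIST7 in normoxia (0.15 to 0.38) and sgCtl with sgXIST9 in hypoxia (0.20 to 0.57), in 2 of 15 pairs of groups; there the pairing rests on these values, not on the labels.

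Members and lists were chosen with earlier results of these data known. HOX genes called in any KD or hypoxia comparison were given per library; listed genes were given by calls. Some genes are not reported here. Promoter windows came from RefSeq (GRCh38.p14), matched by symbol for 20 of 39 members. Exon overlaps were taken from the count table's exon lists and from GENCODE v44 (hg38).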

Additional observations from a re-analysis of the deposited data

Results flagged for a closer look

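The hypoxia response of 4 HOXB genes differed between the KD lines and sgCtl by a test of the difference itself (edgeR interaction, adjusted over all genes tested, 3 libraries per group), which is what marked them out. In sgXIST7 the difference was 1.17 for HOXB2 (adjusted p = 0.0028), 1.85 for HOXB4 (adjusted p = 9.3e-04) and 2.56 for HOXB8 (adjusted p = 0.0081). In sgXIST9 it was 1.73 for HOXB2 (adjusted p = 1.2e-04), 2.27 for HOXB4 (adjusted p = 1.9e-04), 2.30 for HOXB6 (adjusted p = 0.0031) and 2.56 for HOXB8 (adjusted p = 0.0055). The HOXB4 difference was kept in both lines under every left-out library, whereas that of HOXB8 was lost for 12 of 18 left-out libraries in sgXIST7 and for 9 of 18 in sgXIST9. For each of the 4 genes the lowest value in hypoxia was that of sgCtl replicate 3, the library furthest from the others of its group.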

How the results depend on the processing

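The 84 calls of HOX genes were recomputed under up to 27 alternatives each, 2263 values in all. Of these 2120 kept the call, 143 lost it and 0 changed direction, and 46 calls held under every alternative that gave a value. The share of all genes called was not computed for the alternatives, so calls gained under them are not read as particular to HOX genes. The losses were 0 at an adjusted p under 0.05, 1 with RLE factors, 1 with upper-quartile factors, 2 with no filter, 0 of 80 with a mean CPM of at least 1, 1 with DESeq2, 6 without the 3 hypoxia replicate 3 libraries (which also gained 26 calls, given in the report) and 20 of 83 when only the groups compared were fitted, which leaves fewer libraries to estimate the spread. The number of HOX genes called stayed within 1.5 times of the count in the report except as follows, and the cause was not tested. For sgXIST7 against sgCtl in hypoxia (5), it was 9 at an adjusted p under 0.05, 2 with only the groups compared and 10 without the hypoxia replicate 3 libraries. With only the groups compared it was also 5 for sgXIST9 against sgCtl in hypoxia (11), 5 for hypoxia in sgCtl (8) and 1 for the interaction in sgXIST7 (3). The interaction in sgXIST9 (4) gave 7 without the hypoxia replicate 3 libraries.

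With 1 library left out at a time, the counts ran from 6 to 10 for sgXIST7 and from 5 to 8 for sgXIST9 against sgCtl in normoxia, from 3 to 10 and from 9 to 11 in hypoxia, from 5 to 8 and from 6 to 11 between the guides, from 6 to 9, 6 to 11 and 9 to 12 for hypoxia in sgCtl, sgXIST7 and sgXIST9, and from 1 to 4 and 2 to 5 for the interactions in sgXIST7 and sgXIST9. The counts that moved by over 1.5 times were 5 for sgXIST9 in normoxia without sgXIST9 normoxia replicate 1; for sgXIST7 in hypoxia, 3 without sgCtl hypoxia replicate 1 or 2, 10 without sgCtl hypoxia replicate 3 and 9 without sgXIST7 hypoxia replicate 1; 6 for hypoxia in sgXIST7 without sgXIST7 hypoxia replicate 2; 1 for the sgXIST7 interaction without sgXIST7 normoxia replicate 3; and 2 for the sgXIST9 interaction without sgCtl normoxia replicate 1 or 2 or any 1 of the sgXIST9 normoxia libraries.

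A replicate block kept all 84 calls and gave counts of 10, 8, 7, 11, 8, 9, 11, 10 and 12 for the 9 comparisons and 3 and 5 for the interactions. The block also gained 10 calls: HOXB5 lower in sgXIST7 against sgCtl in normoxia, HOXA13 and HOXD11 higher in sgXIST7 against sgCtl in hypoxia, HOXA13 and HOXD10 higher in sgXIST7 than in sgXIST9 in normoxia, HOXC5 and HOXB5 lower and HOXD10 higher with hypoxia in sgCtl, HOXD10 higher with hypoxia in sgXIST9, and the HOXB3 interaction in sgXIST9. The labels do not say that a replicate number marks a shared culture. The same-numbered libraries all correlated over 0.1 in 2 of the 15 pairs of groups, sgCtl with sgXIST7 in normoxia (0.15 to 0.38) and sgCtl with sgXIST9 in hypoxia (0.20 to 0.57), and in these comparisons the block changed no other call than that of HOXB5. In the other pairs of groups the numbers were not taken as pairing. The hypoxia replicate 3 libraries deviated together, at 0.38 for sgCtl with sgXIST7, 0.57 for sgCtl with sgXIST9 and 0.49 for sgXIST7 with sgXIST9. The cause was not tested. Over all, 14 of 45 correlations were over 0.1 (range -0.07 to 0.57) and 22 of 45 were best at their own number. Depth limits genes of few counts, such as HOXD1, HOXD10 and HOXD11 at 0 to 5 counts per sgCtl library in normoxia.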

Other observations

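Of 27 listed noncoding RNAs and neighbors of the clusters in the table, 10 were tested. Against sgCtl 2 were called in sgXIST7 and 1 in sgXIST9 in normoxia, beside 7.76 and 7.70% of all genes, and 2 and 2 in hypoxia, beside 14.0 and 9.53%. With hypoxia 1 was called in sgCtl, 3 in sgXIST7 and 4 in sgXIST9, beside 19.7, 27.3 and 23.3%. HOXA11-AS, which starts 176 bases from HOXA11 on the opposite strand, was higher in all 4 KD comparisons, with log2 changes of 2.45 in sgXIST7 and 2.95 in sgXIST9 in normoxia and 2.93 and 2.17 in hypoxia (edgeR adjusted p = 0.0016, 2.4e-04, 2.7e-04 and 0.0055). Its means were 0.154 ± 0.019 CPM in sgCtl, 0.884 ± 0.311 in sgXIST7 and 1.25 ± 0.347 in sgXIST9 in normoxia (SD, n = 3). HAGLR, which starts 290 bases from HOXD1 on the opposite strand, was higher in sgXIST7 than in sgCtl in normoxia (1.76) and in hypoxia (1.65), and rose with hypoxia by a log2 change of 2.22 (adjusted p = 1.1e-04) in sgCtl, 2.11 (adjusted p = 1.9e-05) in sgXIST7 and 2.53 (adjusted p = 1.5e-05) in sgXIST9, where HOXD1 was called with hypoxia in sgCtl alone. HOTTIP, which starts 330 bases from HOXA13 on the opposite strand, was at 0.0707 ± 0.0782, 0.367 ± 0.1 and 0.0177 ± 0.0307 CPM in sgCtl, sgXIST7 and sgXIST9 in normoxia and at 0.619 ± 0.773, 2.83 ± 0.916 and 1.12 ± 0.788 CPM in hypoxia, and was called higher with hypoxia in both KD lines. MIR10A, within the HOXB cluster, was higher in sgXIST9 than in sgCtl in hypoxia (2.49) and rose with hypoxia in sgXIST7 (2.22) and sgXIST9 (2.68). HOXC-AS2, which starts 3376 bases from HOXC9 on the opposite strand, rose with hypoxia in sgXIST9 (1.86), where HOXC9 was not called. Reads of genes that overlap on opposite strands could not be told apart without the strand setting. In the exon lists of the count table HOXA11 and HOXA13 do not overlap these RNAs, but in GENCODE v44 exons of HOXA11-AS lie opposite 27.2% of the HOXA11 exon bases and exons of HOTTIP opposite 1.72% of those of HOXA13.

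Of 24 genes that flank the clusters, 6 per cluster, 2 were called in sgXIST7 against sgCtl in normoxia, beside 7.76% of all genes, and 3 in hypoxia, beside 14.0%, shares near the background. In sgXIST9 edgeR and DESeq2 each called 0, beside 7.70 and 9.53% of all genes. An unadjusted edgeR p under 0.05 was found for 5 in normoxia and 9 in hypoxia, without a share of all genes to set beside it. Beside HOXA the call was SNX10, in sgXIST7 in hypoxia, at a log2 change of 1.03 (adjusted p = 0.0039). Beside HOXD, LINC01116 and LINC01117, 439 and 447 kb away, were higher in sgXIST7 at both oxygen levels. LINC01116 was at 1.18 ± 0.482 CPM in sgCtl, 8.05 ± 1.11 in sgXIST7 and 2.77 ± 0.749 in sgXIST9 in normoxia, a log2 change of 2.75 (adjusted p = 5.2e-05) for sgXIST7, and 2.54 (adjusted p = 4.5e-05) in hypoxia. LNPK, 89.9 kb from the cluster, was not called in the KD comparisons and rose with hypoxia in all 3 lines, at 1.87, 2.34 and 1.30 in sgCtl, sgXIST7 and sgXIST9. So did NFE2L1 beside HOXB and CALCOCO1 beside HOXC. With hypoxia 4 of the 24 flanking genes were called in sgCtl, 7 in sgXIST7 and 6 in sgXIST9. These counts stood beside 19.7, 27.3 and 23.3% of all genes and were near the background.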
